A study of Mus musculus with 192 samples.

Results

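The genes examined here encode the subunits of the transcription factor NF-κB and the inhibitors that are induced by it. They were 10 among 22350 protein-coding genes: Nfkb1, Nfkb2, Rela, Relb, Rel, Nfkbia, Nfkbie, Nfkbiz, Bcl3 and Tnfaip3. Their windows were taken from the deposited Pi-ATAC list of accessible chromatin, namely all windows that touched a gene body or the 50 kb on either side of it, and this gave 126 of the 50000 windows in the list (0.252%). The loci shared no windows with each other. Windows were divided into those within 1 kb of a transcript start of the gene itself (own promoter, 29), those within 1 kb of a start of another protein-coding or long non-coding gene (30) and all others (distal, 67).

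Pi-ATAC reads open chromatin by transposition in fixed single cells whose surface proteins are recorded during sorting. The cells were 96 cultured cells of the mouse breast cancer line 4T1, stained for the epithelial protein EpCAM, and 96 CD45-stained splenocytes from 1 spleen of an MMTV-PyMT transgenic mouse without a tumor, and both kinds of cell were mixed before fixation. In that mouse a mammary tumor virus promoter drives polyoma middle T antigen, and neither the methods nor the labels state its age. One cell with a 4T1 title carries the source name of the splenocytes. The peak names of the list were read as calls on all cells together, whereas the methods describe calling per condition, so the list is 1 pooled sample without replicates, its read depth is unknown here, and whether 4T1 cells, splenocytes or both opened a given window cannot be told apart. For the same reason no test was run, and counts for the NF-κB genes are set beside the same counts over all genes or all windows. Of the marker genes reported, Epcam, Krt8, Krt18 and Cdh1 had a window at their promoter, as did Cd79a, Cd3e and Laptm5, but Ptprc (the gene of CD45) had none, with 4 distal windows.

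NF-κB is a family of dimers. Rela, Relb and Rel carry transactivation domains, while Nfkb1 and Nfkb2 encode precursors that are processed to the DNA-binding subunits p50 and p52. In resting cells the dimers are held in the cytoplasm by IκB proteins such as IκBα (Nfkbia) and IκBε (Nfkbie). On stimulation IκB is degraded, the dimers enter the nucleus and bind κB sites, and they raise transcription of their own inhibitors, including the ubiquitin-editing enzyme A20 (Tnfaip3). IκBζ (Nfkbiz) and Bcl3 are nuclear IκB proteins that act as cofactors on p50 or p52 dimers. The pathway is used both by lymphocytes and by epithelial cells.

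The 10-base κB consensus was searched on both strands in the mm9 sequence within 500 bp of the outermost start of each gene. Every one of the 10 genes held a match, whereas 15.2% of protein-coding genes did, and 4 of the 10 held 2 or more after overlapping matches were joined, against 1.64%. One match per gene is shown here because these are the sites against which the windows at the promoters can be read. Each line gives 30 bases on the strand of the match, with the match in capitals, and positions are mm9.
Nfkb1, chr3:135354461-135354490: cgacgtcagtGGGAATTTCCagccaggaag
Nfkb2, chr19:46379178-46379207: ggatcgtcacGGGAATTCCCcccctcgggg
Rela, chr19:5637888-5637917: gcggggagggGGGAGATTCCgccgcaggcc
Relb, chr7:20214792-20214821: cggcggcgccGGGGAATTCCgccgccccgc
Rel, chr11:23671041-23671070: ggggagggggGGGGATTTCCcgctgcttac
Nfkbia, chr12:56593644-56593673: gtcaggcgcgGGGAATTTCCaagccagtca
Nfkbie, chr17:45692533-45692562: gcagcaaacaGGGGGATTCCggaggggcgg
Nfkbiz, chr16:55838963-55838992: tttttggcctGGGAATTTCCagcgtgtgga
Bcl3, chr7:20408083-20408112: gccgggcagcGGGACTTCCCctgccgccga
Tnfaip3, chr10:18735209-18735238: ttgccaacagGGGGATTTCCgatggaaatt
The strand of the match was minus for Nfkb1, Rela, Relb and Nfkbiz and plus for the others, except that the Nfkb2 match reads the same on both strands and is shown on plus. The same 10 bases, GGGAATTTCC, stood 35 bp downstream of the Nfkb1 start, 25 bp upstream of that of Nfkbia and 34 bp downstream of that of Nfkbiz, and GGGGATTTCC was found at both Rel and Tnfaip3. A match is a string of letters and does not show that NF-κB was bound.

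All 10 genes had at least 1 window at a start of their own, where 48.1% of protein-coding genes did. The count stayed at 10 when the summit, the center of a window, had to lie within 1 kb of a start, and when only the outermost start of each gene was used. Of the 10, 9 had 2 or more such windows (24.4% of protein-coding genes), 5 had 3 or more (9.37%), and Rel and Nfkbiz had 6 and 5, a number of 5 or more being found at 1.1% of genes. Genes with more annotated starts have more sequence in which a promoter window can fall, and the 10 genes had between 1 (Rel, Nfkbia and Nfkbie) and 8 (Nfkb1) start positions. Promoter CpG ratios, observed over expected, ran from 0.61 at Nfkbiz to 0.971 at Nfkb1, with a median of 0.716 against 0.549 over protein-coding genes. Since CpG-rich promoters are often open, these ratios are given beside the promoter counts, and their part in them was not tested.

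**Figure D1:**
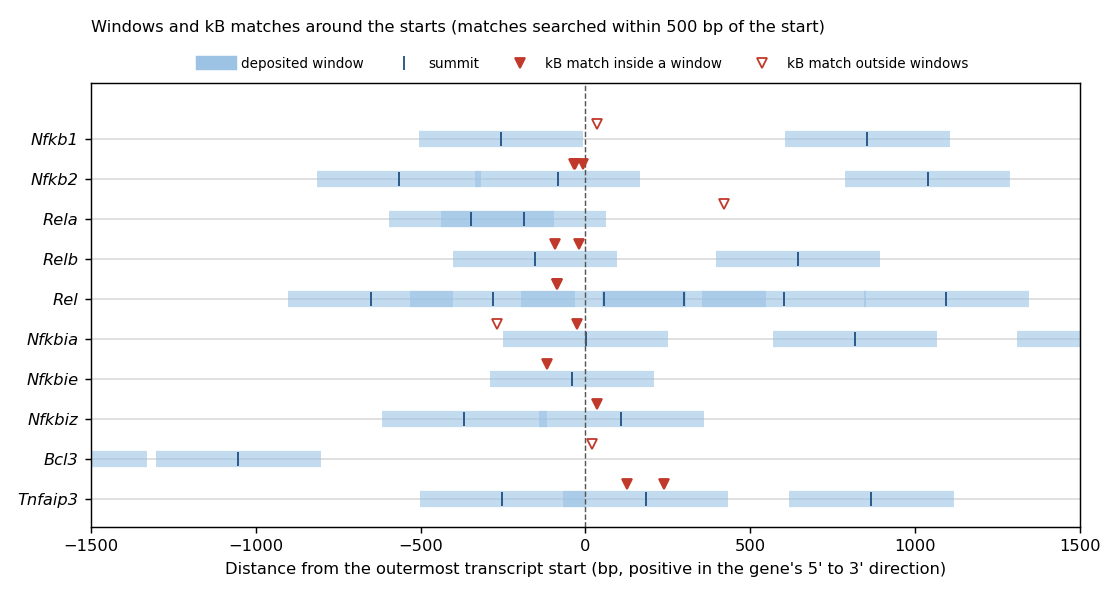
Deposited windows (blue bars, with a tick at the summit) around the outermost transcript start of each gene, in bp along the direction of transcription, and κB consensus matches within 500 bp of the start (triangles, filled where a window covers the match). Windows covered matches at 7 genes, while the matches of Nfkb1, Rela and Bcl3 and the upstream one of Nfkbia lay outside them.

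The outermost start itself lay inside a window at 8 of the 10 genes, against 35.6% of protein-coding genes. The exceptions were Nfkb1, whose nearest window ended 6 bases short of it, and Bcl3, whose nearest window was 803 bases away.

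Of the 16 κB matches within 500 bp of the outermost starts, 12 lay inside windows. Overlapping matches at Nfkb2 and at Rel, all inside windows, are counted separately here, and joining them leaves 14 sites. At Nfkb2, Relb, Rel, Nfkbia, Nfkbie, Nfkbiz and Tnfaip3 a window covered at least 1 of the promoter matches, so 7 of 10 genes did so, against 53.7% of the protein-coding genes that had both a match and a promoter window. At Nfkb1 the match lay 36 bases beyond the edge of the window, in the gap between that window and the next. The Rela match was 352 bases away from the nearest window. Bcl3 had the match 21 bp downstream of its outermost start, but its nearest window was centered 1053 bp upstream, so the match was 819 bases from the window edge. A second match at Nfkbia, 269 bp upstream of the start, missed the window by 15 bases.

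Counted by window, 12 of 29 own-promoter windows (41.4%, 95% exact Clopper-Pearson interval 23.5 to 61.1) held the κB consensus, compared with 9.38% of the 17929 promoter windows in the list. A second κB word, which must end in TTTCC but takes any base at positions 4 and 5 and so also matches sites outside the consensus, gave 34.5% against 3.09%, and restricting the search for the consensus to the central 200 bp gave 31.0% against 3.86%. Intervals cover counting only, and windows that overlap share sequence, as at Rel, where 2 windows hold the same matches. By gene, 7 of the 10 had the κB consensus in an own-promoter window, against 14.9% of protein-coding genes with a promoter window. More own-promoter windows also give a gene more chances to hold a match. Their median number was 2.5 at the 10 genes and 2 at protein-coding genes with one. Of the 67 distal windows, 11 held it (16.4%, 8.49 to 27.5), against 7.32% of the 32071 distal windows in the list. The distal share was 11.9% against 3.14% for the second word, where 4 of the 8 windows lacked the consensus. In the central 200 bp the consensus was in 5.97% against 3.24%. By gene, 6 of the 10 had a distal window with the consensus, against 16.4% of protein-coding genes. A gene with more distal windows has more chances to hold one. The 10 genes had a mean of 6.7 distal windows, against 2.67 over protein-coding genes, so the distal share by gene partly restates that count. The matches in own-promoter windows lay a median of 75.5 bp from the summit (20 matches, against 118 bp over promoter windows of the list), and those in distal windows 116 bp (13 matches, against 115 bp). These matches are counted per window, so those held by 2 Rel windows enter in each, and overlapping matches count separately. The distinct sites are therefore fewer.

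Several matches were the same 10 bases at different genes. GGGAATTTCC was in own-promoter windows of Nfkbia and Nfkbiz and in 0.184% of the promoter windows of the list. GGGACTTTCC, the sequence known from the immunoglobulin κ enhancer, was in such windows of Nfkb2 and Nfkbia (0.312% of the list), and GGGGATTTCC in those of Rel and Tnfaip3 (0.173%). The palindrome GGGAATTCCC was found at the Nfkb2 promoter and in a distal window upstream of Nfkbia (0.0446% of promoter and 0.0998% of distal windows of the list), and GGGGAATTCC at the promoters of Nfkb2 and Relb (0.112%).

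The precursor genes had unlike loci, with 19 distal windows at Nfkb1 and 1 at Nfkb2. Nfkb1, on chromosome 3 from 135247619 to 135354511 (minus strand, 107 kb), had 22 windows, of which 3 were at its own starts and 0 at those of other genes. Its promoter windows had summits 256 bp upstream and 856 bp downstream of the outermost start, the latter in an intron, and a further one at 97.0 kb lay 111 bp from the start of a short internal transcript. Within the gene body 11 distal windows stood in introns, from 2.38 to 72.4 kb downstream of the start. Upstream there were 7, in one group at 20.4 to 21.8 kb (4 windows, chr3:135374638-135376515) and another at 39.3 to 42.6 kb (3 windows). Of protein-coding genes, 99.6% had fewer distal windows than Nfkb1 and 87, itself included, had at least as many. Because long genes offer more room, Nfkb1 was also set beside the 2399 genes of 100 kb or more, whose median was 3 distal windows, and 97.5% of those had fewer. Words for AP-1, the JUN and FOS dimer, were found in 8 of its 19 distal windows, and the RUNX word also in 8 (31.9% and 37.6% of all distal windows of the list). The κB consensus was in 1 of the 19, in an intron 39.1 kb from the start, and it is shown here as the only one of the gene inside a window.
Nfkb1 intron, chr3:135315420-135315449, plus strand: tgctggttttGGGAGATTCCtagagttagc

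Nfkb2, on chromosome 19 from 46379227 to 46386580 (plus strand, 7.35 kb), had 7 windows and a single distal one, 44.7 kb downstream in an intron of Tmem180. Its 3 promoter windows had summits 566 and 84 bp upstream and 1039 bp downstream of the outermost start, the last in a UTR. The window at 84 bp upstream held overlapping matches at 34 and 33 bp upstream of the start and another at 6 bp, and the window at 1039 bp held GGGACTTTCC in the stretch shown next.
Nfkb2 inner start, chr19:46380185-46380214, plus strand: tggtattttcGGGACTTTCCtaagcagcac
The other windows belonged to the starts of Fbxl15 and Cuedc2. Open chromatin at Nfkb2 was thus recorded almost wholly at starts, while at Nfkb1 most of it was recorded away from them.

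**Figure D2:**
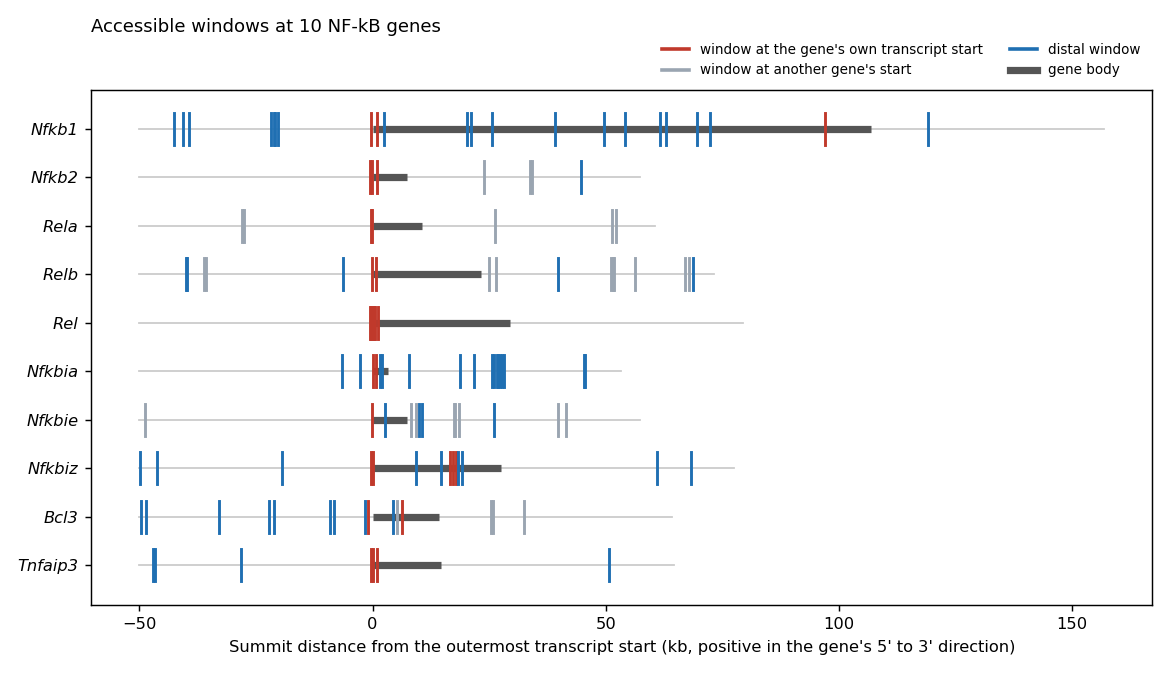
Summits of all windows in the 10 loci, placed by distance in kb from the outermost transcript start along the direction of transcription, with colors for own-promoter, other-promoter and distal windows and a thick bar for the gene body. Distal windows fill the introns of Nfkb1 and the region 3′ of Nfkbia, whereas Rela and Rel had 0.

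Among the subunits with a transactivation domain, Rela and Rel had no distal window and Relb had 5. Rela (chr19:5637483-5648130, plus strand) had promoter windows with summits 346 and 187 bp upstream of the start, and its other 5 windows belonged to the starts of Kat5, Sipa1, Map3k11 and Pcnxl3. Rel (chr11:23641514-23670970, minus strand), which is known mainly from lymphocytes and myeloid cells, had 6 windows, and all of them were at its single start. Of these, 5 came from 1 peak call with 5 summits, running from 652 bp upstream to 603 bp downstream, and the remaining one was centered 1095 bp downstream. In the whole list 58 of 44863 calls (0.129%) had 5 or more windows. The PU.1 word GAGGAAGT, the site of a factor of B cells and myeloid cells, was in 3 of the 6 Rel windows, against 4.11% of all promoter windows, and 2 of those 3 overlap each other.

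Relb (chr7:20191566-20214787, minus strand) lay in a dense stretch with 7 other protein-coding genes in its locus, and 10 of its 17 windows belonged to the starts of neighbors such as Clptm1, Zfp296, Gemin7 and Lrrc68. Its promoter call had summits 153 bp upstream and 645 bp downstream of the outermost start. Matches at 20 and 93 bp upstream both fell in the former. The nearest distal window, 6.29 kb upstream in a coding exon of Clptm1, also held κB matches, and it is shown with its mm9 position.
Relb distal, chr7:20220908-20220937, minus strand: ttggtctctgGGGGGTTTCCcaatgcctgc

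Fewer numbered calls were in the list around some of these genes. Calls are numbered along the genome, and between the windows flanking the Rel locus only 2 of 16 numbered calls were present, against 6 of 12 at Rela and 12 of 22 at Relb. Rel, Nfkbia and Tnfaip3 lie on chromosomes 11, 12 and 10, which kept 30.6%, 27.2% and 27.7% of their calls, whereas the chromosomes of the other 7 genes kept 39.7% to 44.4%. Rel had no distal window, so every call in its locus away from its start is missing from the list by definition. In and around the locus 14 calls were missing, which restates that absence in part. Within 1 Mb either side of Rel, 32.1% of numbered calls were in the list. The part of unlisted calls in the absence of distal windows was not tested.

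The cytoplasmic inhibitor Nfkbia, whose product IκBα is resynthesized soon after NF-κB enters the nucleus, had the densest set of distal windows of the 10 genes. The gene is short (chr12:56590398-56593634, minus strand, 3.24 kb), and no other protein-coding gene overlaps its locus. It had 18 windows, with 2 at the promoter and 16 distal, or 15.5 distal windows per 100 kb, where the median over protein-coding genes was 0.995 and 29 genes, Nfkbia included, reached that density. Among the 5837 genes under 5 kb, 99.7% had fewer distal windows. Chromosome 12 kept the smallest share of its calls among the 20 chromosomes.

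Most of the Nfkbia windows lay 3′ of the gene, with 12 downstream, 2 in the body and 2 upstream. A group of 7 windows from 2 calls covered chr12:56565239-56568217, 2.98 kb of intergenic sequence, with summits 25.7 to 28.1 kb from the start. One of the 2 calls had 5 summits, at 26.8 to 28.1 kb, and only 20 calls of the whole list had 5 or more windows with none at a promoter. The RUNX word TGTGGT was in 5 of the 7 windows, some of which overlap, while the κB consensus was in 0 of 7 and the second κB word in 2. The shares over all distal windows of the list were 37.6%, 7.32% and 3.14%. Elsewhere in the locus the κB consensus was present in 3 distal windows, 2.61 kb upstream and 7.85 and 45.7 kb downstream by their summits, and in both promoter windows. The promoter windows had summits 1 bp and 818 bp downstream of the start, the latter in an intron. The upstream distal site and the intronic promoter site are given here because they show palindromic and classical forms of the site.
Nfkbia upstream, chr12:56596332-56596361, plus strand: ggccctccctGGGAATTCCCtaggagttac
Nfkbia intron, chr12:56592934-56592963, plus strand: cagccgcccaGGGACTTTCCgtgccccacc

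Nfkbie (chr17:45692665-45700118, plus strand), which encodes IκBε, looked different. It had 1 promoter window, centered 41 bp upstream of the start, and this covered the κB match at 117 bp upstream. Of its 12 other windows, 8 belonged to the starts of Aars2, Slc35b2, Hsp90ab1 and Slc29a1. The 4 distal windows were centered 2.77 kb downstream in an intron and 10.0, 10.7 and 26.0 kb downstream, beyond the gene, and none of them held the κB consensus.

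Both nuclear IκB genes had 9 distal windows, more than 94.1% of protein-coding genes. Nfkbiz (chr16:55811488-55839012, minus strand, 27.5 kb) had promoter windows at separate starts. At the outermost start the summits lay 368 bp upstream and 109 bp downstream, and the second, in a UTR, covered GGGAATTTCC. At an inner start further downstream there were 3 windows, with summits at 16.7, 17.3 and 17.9 kb. Both sets held the κB consensus, in 1 window of each, and the match in the window at 17.3 kb was GGGACTTCCC, the same 10 bases as at the Bcl3 start. The window 368 bp upstream held the second κB word without the consensus. Distal windows flanked the inner start at 14.8, 18.4 and 19.3 kb, and the one at 18.4 kb held the κB consensus. The farthest upstream, at 49.9 kb in an intron of Fam55c, was just inside the 50 kb limit, and the next window on that side lay 55.6 kb from the gene.

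Bcl3 (chr7:20393811-20408119, minus strand, 14.3 kb) had its windows mainly upstream. Its own-promoter windows were centered 1053 bp upstream of that start and 6302 bp downstream, in an intron near the start of a shorter transcript. The window centered 1053 bp upstream reached into the 1 kb limit, whereas the next, at 1579 bp upstream, lay just outside it and is counted as distal. Of the 9 distal windows 8 were upstream, spread from 1.58 to 49.6 kb. The κB consensus was in 3 of them, at 1.58, 21.1 and 22.2 kb. The nearest of these is shown because its match lies 12 bp from the summit.
Bcl3 upstream, chr7:20409695-20409724, plus strand: gcagcagctcGGGGCTTTCCcggacatccc

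Tnfaip3 (chr10:18720716-18735463, minus strand, 14.7 kb) encodes A20, which ends NF-κB signaling by acting on ubiquitin chains. Its 3 promoter windows came from 1 call with summits 252 bp upstream and 183 and 868 bp downstream of the outermost start, and the middle one held κB matches at 126 and 239 bp downstream. It had 4 distal windows, 28.2, 46.6 and 47.0 kb upstream and 50.6 kb downstream, with no other protein-coding gene in the locus. The downstream window held GGGGATTTCC, as did the promoter.
Tnfaip3 downstream, chr10:18684884-18684913, plus strand: cggcgaaaacGGGGATTTCCactttcaaaa

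**Figure D3:**
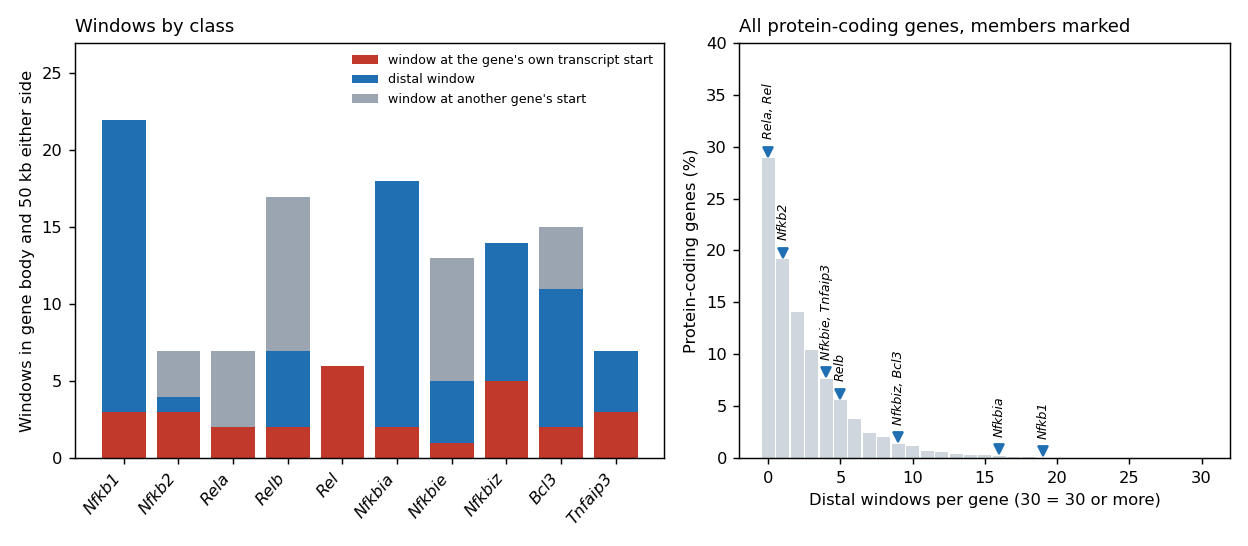
Left, windows per gene by class in the gene body and 50 kb either side. Right, the percentage of protein-coding genes with each number of distal windows, with the 10 genes marked, from 0 at Rela and Rel to 16 at Nfkbia and 19 at Nfkb1.

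Across the 10 genes the median was 4.5 distal windows per locus, against 2 over protein-coding genes (quartiles 0 and 4), and 7 of 10 were above that median, as were 37.9% of protein-coding genes. Per 100 kb of locus the medians were 3.89 and 0.995. At least 1 distal window was present at 8 of 10 genes (71.1% of protein-coding genes), 10 or more at 2 (4.45%), and 1 or more inside the gene body at 5 (27.4%). Nfkb1 and Nfkbia together held 35 of the 67 distal windows (52.2%). By position, 38 of the 67 summits were intergenic, 17 in introns and 2 in exons of the gene itself, and 10 in another gene.

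Windows from calls with several summits made up 41 of the 126 (32.5%), against 18.2% of the list. In the own-promoter class they were 17 of 29 (58.6%, against 33.0% of promoter windows) and in the distal class 12 of 67 (17.9%, against 9.96%). The 12 came from 3 genes, 7 of them from Nfkbia, 3 from Nfkb1 and 2 from Relb. GC content was close to that of the list in both classes, with medians of 59.8% and 59.2% for promoter windows and 49.0% and 48.8% for distal ones.

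Other words were searched in the same windows. The AP-1 word TGANTCA was in 20 of 67 distal windows (29.9%, against 31.9% of distal windows in the list). The RUNX word was in 31 (46.3%, interval 34.0 to 58.9, against 37.6%), of which Nfkbia held 10 and Nfkb1 8. The IRF word, GAAA repeated after a gap of 2 bases, was in 3 (4.48%, against 6.09%), the TEAD word ACATTCC in 5 (7.46%, against 9.22%), the STAT word TTCNNNGAA in 13 (19.4%, against 14.5%) and the GRHL word AACCNGTT in 2 (2.99%, against 3.70%). The C/EBP word TTNNGCAAT was in 4 distal windows (5.97%, against 4.04%) and 3 own-promoter windows (10.3%, against 2.25%). The PU.1 word was in 5 distal windows (7.46%, against 4.92%) and the SP1 word GGGGCGGGG in 3 (4.48%, against 3.04%). The ETS word CCGGAAGT was in 0 of 67, which allows up to 5.36% by the exact interval, against 0.901%. At own promoters the PU.1 word was in 6 of 29 windows (20.7%, interval 7.99 to 39.7, against 4.11%), from Rel, Relb and Bcl3, and the SP1 word in 11 (37.9%, 20.7 to 57.7, against 20.0%). AP-1 and RUNX words were in 5 own-promoter windows each (17.2%, against 12.2% and 22.3%) and STAT words in 4 (13.8%, against 10.9%). The ETS, IRF and TEAD words were each in 1 own-promoter window (3.45%), against 6.59%, 5.1% and 5.19% of promoter windows, and the GRHL word in 0, against 2.98%. No window of either class held the long NFI or CTCF word, which were in 0.0335% and 0.0725% of promoter windows and in 0.118% and 0 of distal windows of the list.

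**Figure D4:**
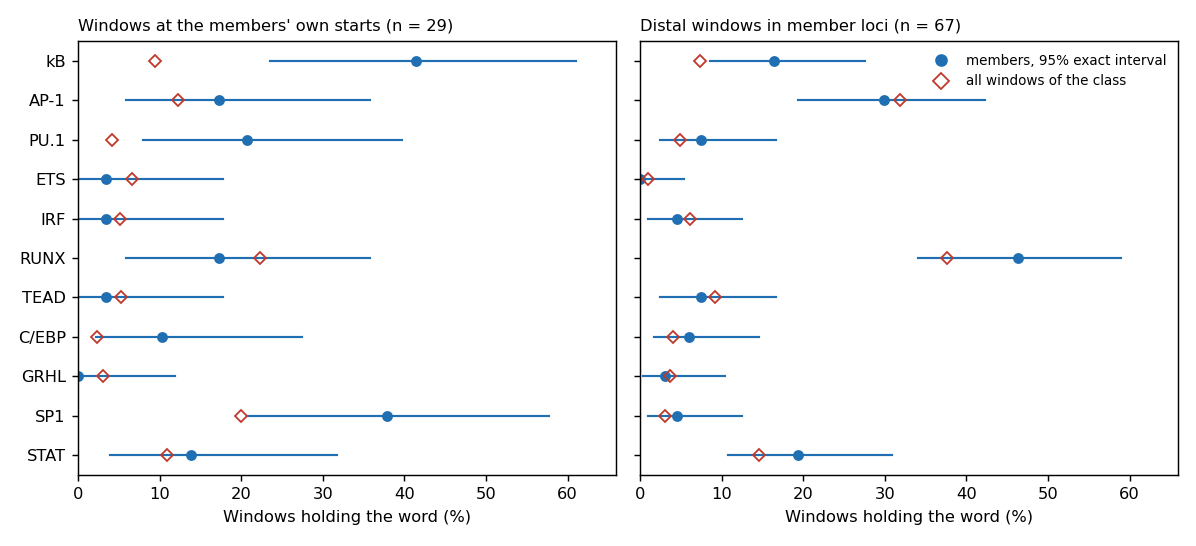
Percentage of windows with a sequence word among own-promoter windows (left) and distal windows (right) of the 10 genes (filled circles with 95% exact binomial intervals), beside all promoter or all distal windows of the list (open diamonds). The NFI and CTCF words, and κB words other than the consensus, are not drawn. The κB word was in 41.4% of own-promoter windows against 9.38%, and AP-1 in 29.9% of distal windows against 31.9%.

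Among 65 further genes of the pathway, 48 (73.8%) had a window at a start of their own, against 48.1% of protein-coding genes, and their median was 4 distal windows. Receptors and adaptors had one at 17 of 21, and Cd40, Tnfrsf11a and Tnfrsf13c were among those without. The TNF receptor gene Tnfrsf1b had 20 distal windows, 1 more than Nfkb1, followed by Ltbr, Tnfrsf1a and Traf5 with 8 each, and the loci of Ltbr and Tnfrsf1a overlap on chromosome 6. Kinase genes had promoter windows at 9 of 10, with Tab1 as the exception, but few distal ones (median 1), led by Map3k14, the kinase of the non-canonical branch, with 8, Tbk1 with 7 and Ikbke with 4. Further inhibitors had promoter windows at 10 of 12, Birc2 and Tnip3 being without, and a median of 3.5 distal windows, led by Commd1 and N4bp1 with 9 and Tnip2 with 8. Target genes such as cytokines, chemokines and adhesion molecules had them at 12 of 22 (54.5%), close to all genes, with a median of 4 distal windows, led by Cflar with 7 and Il1b with 6, while Icam1, Lta, Ltb, Tnf and Vcam1 were tied at 5, and the loci of Lta, Ltb and Tnf overlap.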

How the data were processed

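Pi-ATAC was performed on 96 4T1 cells and 96 splenocytes, grouped by sample title. According to the study's methods and the submitters' processing notes, the authors removed adapter sequence, aligned to mm9 (Bowtie2 2.1.0), discarded mitochondrial, poorly aligned and duplicate reads (Picard 1.79), and called summits with MACS2 on pooled cells. Windows of 500 bp around the summits were ranked by q-value and the best 50000 were retained. The deposited values are window positions with a peak name, without a score, count or p-value in the list used here, so no test was run and read depth is not analysed here. Chromosome names of the reference sequence matched the mm9 names. GENCODE vM1 gene models on the 20 chromosomes with windows were used. A window belonged to a promoter when at least 1 bp lay within 1 kb of a transcript start, and to a locus when it touched the gene body or 50 kb either side. Words were searched on both strands with Python 3.11.15, and intervals are exact binomial (SciPy 1.17.1). Classes and words were tested on simulated data. The genes and lists were chosen with earlier results of these data known. Named genes are the 10 genes, neighbors whose start lies at a window, cell type markers, up to 3 pathway genes per group with the most distal windows and genes without a promoter window where a group had 5 or fewer of them. Traf5, Lta, Ltb, Tnf and Vcam1 were added as ties. Tmem180 and Fam55c, and the IRF and SOCS genes of the closing section, were named after their values were seen. Alternatives covered promoter and locus distances, overlap, starts, multi-summit windows, chromosomes and κB words. Individual values of some listed genes are not reported here.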

Additional observations from a re-analysis of the deposited data

How the results depend on the processing

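The count of 10 genes with a promoter window was kept with promoter distances of 500 bp and 2 kb, with at least 250 bp of overlap, with summits inside the promoter and with outermost starts, and was 7 of 7 on chromosomes 2 to 9, 14 to 19 and X. With windows of multi-summit calls alone it was 6, Nfkb1, Nfkb2, Rela and Nfkbie being without, against 13.0% of protein-coding genes. The median of 4.5 distal windows became 2 with 10 kb either side (0 over all genes), 0.5 in gene bodies alone (0), 10.5 when only windows at the gene's own starts were left out (3) and 0 with multi-summit windows alone (0). It ranged from 4 to 5.5 with 100 kb flanks, merged windows, a promoter distance of 2 kb, the chromosome subset and without Nfkb1 and Nfkbia. The last of these settings was added once results were known. Over all genes the median was 3 with 100 kb flanks (5.5 for the 10 genes), 1 with a promoter distance of 2 kb and 2 in the other settings. The κB share of distal windows fell to 5.97% in the central 200 bp and to 0 of 12 multi-summit windows (9.46% of such windows in the list), and was 21.9% without Nfkb1 and Nfkbia (32 windows), a setting added once results were known. The wider κB word gave 23.9% of distal windows against 15.4%, and 41.4% of own-promoter windows against 21.7%. The causes of these shifts were not tested, except that fewer windows are counted by construction with smaller regions. No paired analysis was possible because the list pools all cells and holds no value per cell, and for the same reason no cell could be left out. A list of positions chosen by q-value without depth does not show how open a window was, and a gene without a window may have a call that was not kept.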

Other observations

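Families of other signaling factors gave the following values by the same counts. Among 9 IRF genes, 6 had a window at a start of their own, and the median was 2 distal windows, from 0 at Irf9 to 13 at Irf2. Among 15 STAT and SOCS genes, 14 had one, and the median was 4. Over protein-coding genes 48.1% had such a window and the median was 2 distal windows. Among the 10 NF-κB genes all had one, with a median of 4.5. In that family the short feedback inhibitor genes Socs1 (1.73 kb) and Socs3 (3.97 kb) had 14 and 13 distal windows, or 13.8 and 12.5 per 100 kb, beside 15.5 at Nfkbia. Differences between these families were not tested.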
